A study of Mus musculus with 20 samples.

Results

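Open chromatin of adult mammary basal cells was set against that of the fetal mammary stem cell population, fMaSC, by comparing the authors' peak list of each population. The comparison took in all 80294 adult basal peaks and all 79910 fMaSC peaks on chromosomes 1 to 19 and X, 160204 of the 281818 nuclear peaks in the 4 peak lists of normal mammary cells. A peak was called matched when it shared at least 1 bp with a peak of the other list. Peaks of the basal list with no match are called basal-only here and peaks of the fMaSC list with no match fMaSC-only, whatever other cell types held at the site. The series of 20 samples used ATAC-seq, in which the Tn5 transposase cuts and tags accessible DNA. The samples used here were nuclei of sorted cells, and the series also holds a PY230 bulk tumour and a PY230 2D culture. Adult basal cells came from mammary glands of adult C57BL6J mice (2 samples), and fMaSC from C57BL6J mammary glands at embryonic day 18 (2 samples). Both populations were wild type and sorted by FACS from primary tissue. Context came from luminal progenitor and mature luminal cells of adult C57BL6J glands (2 samples each), and from luminal cells of tumours of PY230, a mouse mammary tumour line grown in syngeneic C57BL6J hosts, sorted as SOX10 high or SOX10 low (3 samples each). How many animals went into a sample is not stated in the labels.

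Basal cells form the outer, contractile layer of the mammary duct. They express keratins 5 and 14 and the transcription factor p63, and they squeeze milk out in response to oxytocin. The fMaSC population is sorted from the late fetal mammary rudiment, where cells that can give rise to both basal and luminal layers are enriched, whereas in the adult gland most basal cells renew only their own layer. Accessible sites are mostly promoters and enhancers, and distal enhancers differ between cell types more than promoters do.

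Each list combines both samples of a population, so the values below have no replicate error, samples could not be left out, and differences between the populations carry no test. Intervals are exact (Clopper-Pearson) 95% binomial intervals over peaks, which cover counting error only. The depth of the libraries is unknown, and the number and width of peaks in a list move with it. The fold of a peak, the authors' enrichment over background, is used as a rank within its own list. Positions are in mm9, and gene positions of that build were not used here, so no gene is named and the sorted populations could not be checked against marker genes.

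Most peaks of each population had a match in the other, and each population also had peaks without one. Of adult basal peaks, 28538 (35.5%, interval 35.2 to 35.9%) had no fMaSC peak. Of fMaSC peaks, 23971 (30.0%, 29.7 to 30.3%) had no basal peak. Merging the lists gave 103929 sites, of which 28538 were basal-only, 23971 were fMaSC-only and 51420 (49.5%) held peaks of both. Basal-only peaks covered 15.1 Mb, 21.4% of the sequence under basal peaks, and fMaSC-only peaks covered 8.94 Mb, 18.6% of the sequence under fMaSC peaks. Few peaks lay at the edge of the matching rule. Overlaps of 1 to 10 bp made up 14 basal peaks (median fold 4.53) and 17 fMaSC peaks (median fold 4.81), and gaps of 0 to 10 bp left 13 basal peaks (median fold 4.74) and 19 fMaSC peaks (median fold 5.82) without a match.

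Unmatched peaks were mainly the weak and narrow peaks of their lists. Basal-only peaks had a median width of 448 bp, against 889 bp for matched basal peaks, and fMaSC-only peaks had 314 bp, against 560 bp for matched fMaSC peaks. Their median rank by fold was the 29.3rd percentile of the basal list and the 28.7th percentile of the fMaSC list, and matched peaks had medians at the 64.1st and 60.4th percentiles. In the weakest decile of each list, 70.4% of basal peaks and 55.1% of fMaSC peaks had no match. In the strongest decile, 126 of 8030 basal peaks (1.57%, 1.31 to 1.87%) and 141 of 7991 fMaSC peaks (1.76%, 1.49 to 2.08%) had none. The excess of unmatched basal peaks over unmatched fMaSC peaks lay in the weaker deciles of the lists, and in deciles 8 to 10 the intervals of the lists overlapped.

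**Figure D1:**
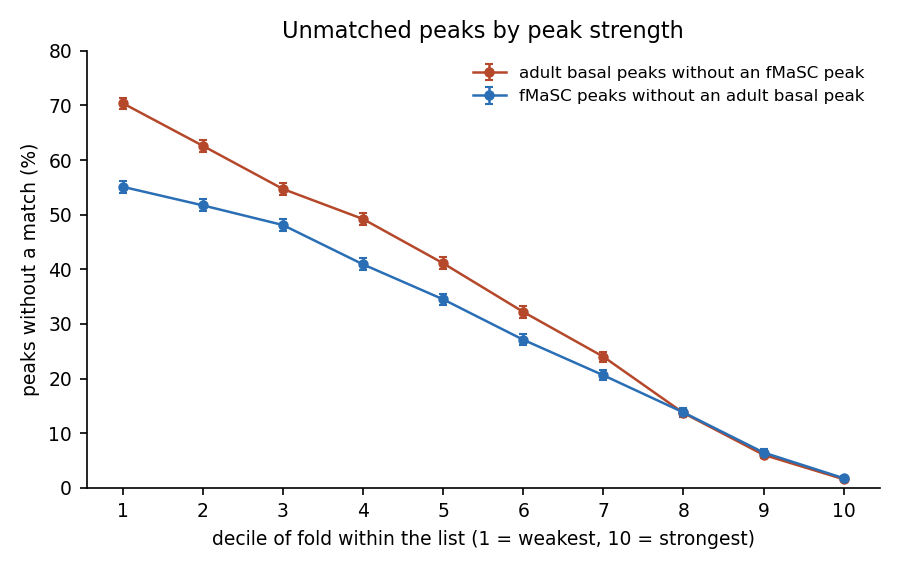
Share of peaks without a match (%, y axis) by decile of fold within the list (x axis, 1 weakest to 10 strongest) for adult basal and fMaSC peaks, with exact 95% intervals. The share is lower at each stronger decile in both lists and ends at 1.57% of basal and 1.76% of fMaSC peaks.

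Where the populations shared a site, the basal peak was usually the wider one. In 47183 sites exactly 1 basal and 1 fMaSC peak overlapped each other, which took in 91.2% of matched basal peaks and 84.3% of matched fMaSC peaks. The basal peak was wider at 79.6% of these sites, with a median ratio of basal to fMaSC width of 1.37 (quartiles 1.06 and 1.85). The basal peak enclosed the whole fMaSC peak at 62.0% of sites, and the fMaSC peak enclosed the basal peak at 11.2%. Several peaks of the other list lay under 4007 basal peaks (4.99%) and under 316 fMaSC peaks (0.395%). A basal peak of 11746 bp on chromosome 2, from 117943911 to 117955656, spanned 8 fMaSC peaks, the highest number in the basal list. It is named for that count, after its value was seen.

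Ranks at shared sites went together only in part. Over the 47183 sites, the fold percentile in the basal list and that in the fMaSC list had a Spearman rho of 0.63, and the median difference was 12.8 percentile points. The points are sites from the same pair of pooled lists, so the value is a description. The basal rank was at least 50 points above the fMaSC rank at 1570 sites (3.33%), and the fMaSC rank was at least 50 points above the basal rank at 1424 sites (3.02%). A region of the PY230 list of sites open in SOX10-high cells overlapped 0.892% of the basal peaks at sites ranked higher in basal cells and 5.62% at those ranked higher in fMaSC, against 1.45% over all these sites.

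Among sites ranked far higher in basal cells, that with the widest gap lay on chromosome 5. Its basal peak, from 93360329 to 93363840, was 3512 bp wide and stood at the 97.8th percentile, and the fMaSC peak inside it was 277 bp wide, with a rank 95.7 points lower. Next came sites on chromosome 8, where the basal peak ran from 78849507 to 78850563, and on chromosome 2, where it ran from 13371999 to 13373831, where the basal ranks were 95.6 and 93.7 points above the fMaSC ranks. In the other direction, a basal peak of 200 bp on chromosome 2, from 106685428 to 106685627, stood at the 0.987th percentile of its list, inside an fMaSC peak of 1416 bp at the 98.7th percentile. That site also held peaks of both adult luminal types. The next such sites, with basal peaks on chromosome 6 from 49167697 to 49168042 and on chromosome 9 from 95292456 to 95292756, had differences of -96.0 and -92.1 points (basal minus fMaSC). A site counted as matched could therefore be close to the top of one list and close to the bottom of the other.

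The 5 strongest basal-only peaks were wider than most of their class, and 4 of them lay in sites that a luminal type also held. Of all basal peaks, 40.5% overlapped no luminal peak, and 5 peaks are too few to be told apart from that share. The basal-only peak of highest fold lay on chromosome 18 from 60828164 to 60831111, with a width of 2948 bp and a fold of 30.8, at the 99.4th percentile of basal peaks. Luminal progenitors also had a peak there, and the nearest fMaSC peak was 8.34 kb away. On chromosome 14, from 77884347 to 77885725, the second had a fold of 30.4, no luminal peak, and its nearest fMaSC peak 55.5 kb away. The third, on chromosome 5 from 67401798 to 67403538, had a fold of 29.7 and overlapped a luminal progenitor peak. The next, on chromosome 9 from 3023965 to 3024663 (fold 28.7), was only 699 bp wide, lay 277 bp from an fMaSC peak and overlapped peaks of both luminal types. How repeats were handled is not stated, and this site was not checked for repeated sequence, so its fold may not reflect accessibility. The fifth lay on chromosome 13 from 47050489 to 47051836 and overlapped a mature luminal peak. With no fMaSC peak within 10 kb, the third strongest was on chromosome 8 from 33375002 to 33376543 (fold 25.9), at a site with no luminal peak.

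Of the 5 strongest fMaSC-only peaks, 4 likewise lay in sites that a luminal type held, where 39.0% of all fMaSC peaks overlapped no luminal peak. The leading fMaSC-only peak lay on chromosome 1 from 196508916 to 196509832, had a fold of 31.1 at the 98.9th percentile of fMaSC peaks, and overlapped peaks of both luminal types and a region closed in SOX10-high PY230 cells. An fMaSC-only peak on chromosome 2 from 150468954 to 150470448, also with a fold of 31.1, overlapped a luminal progenitor peak and lay 18.3 kb from the nearest basal peak. On chromosome 12, from 120313292 to 120314301, a peak with a fold of 29.9 overlapped no luminal peak. The following peak, on chromosome 6 from 142707985 to 142709318, had peaks of both luminal types and a basal peak 1.63 kb away. The fifth, on chromosome 1 from 50826621 to 50827907, had a fold of 29.6 and its nearest basal peak 65.1 kb away. It overlapped a luminal progenitor peak and a region open in SOX10-high PY230 cells. Of the 126 basal-only peaks in the strongest decile of their list, 45.2% (36.4 to 54.3%) overlapped a luminal progenitor peak and 35.7% (27.4 to 44.7%) a mature luminal peak. Over all basal peaks of any strength these shares were 53.7% and 45.2%. Of the 141 such fMaSC-only peaks, 55.3% (46.7 to 63.7%) overlapped a luminal progenitor peak and 27.7% (20.5 to 35.8%) a mature luminal peak. Over all fMaSC peaks of any strength these shares were 55.6% and 45.7%. Shares over all peaks of the strongest decile were not computed. In this decile the intervals of basal-only and fMaSC-only peaks overlapped for both luminal types, and no difference was tested. The strongest tertile holds more peaks. There, mature luminal peaks overlapped 30.9% of basal-only (29.0 to 32.9%) and 21.4% of fMaSC-only peaks (19.7 to 23.2%). Luminal progenitor peaks overlapped 39.7% (37.6 to 41.8%) and 38.8% (36.8 to 40.9%).

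The lists differed in how far their unmatched peaks lay from the other list. Basal-only peaks lay near fMaSC peaks, at a median distance of 5166 bp, and only 253 of them (0.887%, 0.781 to 1.00%) were more than 100 kb from any fMaSC peak. fMaSC-only peaks lay a median of 9681 bp from the nearest basal peak, and 3074 (12.8%, 12.4 to 13.3%) were more than 100 kb away. Between these extremes, 53.4% of basal-only and 39.4% of fMaSC-only peaks lay 1 to 10 kb from the other list. The distant fMaSC-only peaks were not the weakest of their class. Those beyond 100 kb had a median at the 32.5th percentile of the fMaSC list and a median width of 332 bp, against the 24.7th percentile and 305 bp for those within 1 kb of a basal peak. They overlapped luminal peaks less often, with luminal progenitor peaks at 12.0% against 26.5% and mature luminal peaks at 12.4% against 17.2%.

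**Figure D2:**
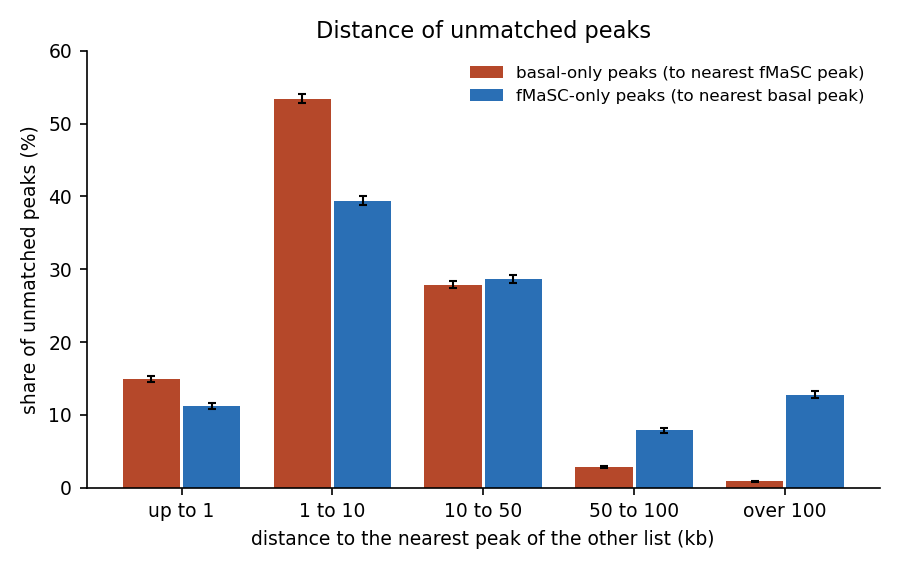
Share of unmatched peaks (%, y axis) by distance to the nearest peak of the other list (x axis, kb), for basal-only and fMaSC-only peaks, with exact 95% intervals. Distances over 100 kb hold 0.887% of basal-only and 12.8% of fMaSC-only peaks.

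The same held for strong peaks. Among the 30000 strongest peaks of each list, 3010 basal and 2948 fMaSC peaks matched no peak at all of the other list. Of these, 1.10% of basal-only (0.756 to 1.54%) and 17.1% of fMaSC-only peaks (15.8 to 18.5%) lay more than 100 kb from the other list. Over all peaks, other pairs of lists gave values between those of this pair. Of peaks without a match in the basal list, 5.41% of luminal progenitor and 7.81% of mature luminal peaks lay more than 100 kb from any basal peak. Of peaks without a match in the fMaSC list, 1.16% of luminal progenitor and 2.46% of mature luminal peaks were that far from any fMaSC peak. fMaSC peaks without a match were beyond 100 kb in 12.0% of cases against luminal progenitors and in 8.48% against mature luminal cells.

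Distance to the other list partly depends on how many peaks that list has nearby. Regions were also graded by the peaks of luminal progenitor and mature luminal cells, which the matching did not use. The grading does not remove that dependence, because windows with few luminal peaks also held few basal peaks, and fewer basal than fMaSC peaks. In 1 Mb windows with 1 to 10 luminal peaks, 411 of 1196 basal peaks (34.4%, 31.7 to 37.1%) and 2017 of 2831 fMaSC peaks (71.2%, 69.5 to 72.9%) had no match. In windows with 81 or more, 12141 of 35239 basal peaks (34.5%, 34.0 to 35.0%) and 6847 of 32212 fMaSC peaks (21.3%, 20.8 to 21.7%) had none. The unmatched share of basal peaks stayed between 34.4% and 36.5% across all windows with a luminal peak, while that of fMaSC peaks was 53.2%, 39.2% and 29.1% in the windows of 11 to 20, 21 to 40 and 41 to 80. The 67 windows with a peak of either population and no luminal peak held few peaks, and in them 38 of 73 basal peaks and 154 of 190 fMaSC peaks were unmatched. The 30000 strongest peaks of each list were also set against all peaks of the other. In windows of 1 to 10 luminal peaks, the unmatched share was 14.3% (10.5 to 18.9%) of 286 basal and 44.6% (40.8 to 48.4%) of 689 fMaSC peaks. It was 9.34% of basal and 5.45% of fMaSC peaks in windows of 81 or more.

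**Figure D3:**
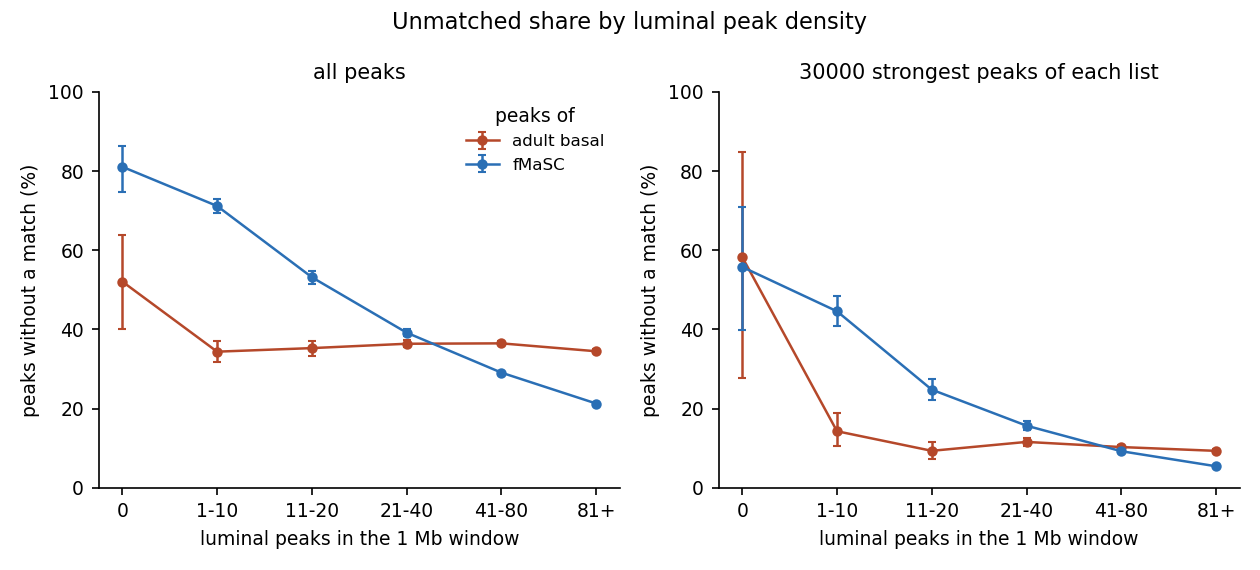
Share of peaks without a match (%, y axis) in 1 Mb windows graded by their number of luminal progenitor and mature luminal peaks (x axis), for all peaks (left) and the 30000 strongest peaks of each list (right), with exact 95% intervals. From windows of 1 to 10 to windows of 81 or more luminal peaks, the fMaSC share goes from 71.2% to 21.3% on the left while the basal share stays near 34.4%. The leftmost points rest on few peaks.

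Whole chromosomes differed in the same way. The basal-only share ran from 32.3% on chromosome 3 to 37.8% on chromosome 11, and the fMaSC-only share from 23.0% on chromosome 11 to 36.9% on chromosome X. Basal peaks were unmatched more often than fMaSC peaks on 17 of 20 chromosomes, and chromosomes 1, 3 and X had the opposite order. Across the 20 chromosomes, the unmatched share had a Spearman rho of 0.42 for basal and -0.88 for fMaSC peaks with the number of luminal peaks per Mb, and of 0.33 and -0.86 without chromosome X. These are descriptions over chromosomes of the same pooled lists. Luminal peaks per Mb ranged from 16.8 on chromosome X to 60.8 on chromosome 11. A higher fMaSC-only share did not mean more fMaSC-only peaks per Mb. Their density was 4.03 per Mb on chromosome X and 9.30 on chromosome 11, with a median of 9.40 and a maximum of 10.9. All fMaSC peaks ran from 10.9 to 40.5 per Mb on these chromosomes. Basal-only peaks ran from 3.21 per Mb on chromosome X to 17.3 on chromosome 11, with a median of 11.1.

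Measured by distance, basal-only peaks sat closer together than fMaSC-only peaks, while unbroken rows were more common among fMaSC-only peaks. Another peak of the same unmatched class lay within 10 kb of 49.1% of basal-only peaks (48.6 to 49.7%) and of 31.6% of fMaSC-only peaks (31.0 to 32.2%). Any other peak of the same list lay within 10 kb of 78.1% of basal-only and 58.9% of fMaSC-only peaks, against 73.2% of matched basal and 72.9% of matched fMaSC peaks. Counted along the list whatever the distance, 12.4% of basal-only peaks (12.0 to 12.8%) and 20.9% of fMaSC-only peaks (20.4 to 21.4%) stood in rows of 5 or more unmatched peaks with no matched peak between them. More 1 Mb stretches lacked basal peaks than lacked fMaSC peaks. On a grid of 1 Mb windows, 7 windows had a basal peak and no fMaSC peak, with 8 basal peaks in all, and 166 windows on all 20 chromosomes had an fMaSC peak and no basal peak, with 609 fMaSC peaks in all. Of these 166 windows, 61 held a luminal progenitor peak and 114 a mature luminal peak. Their 609 fMaSC peaks were mostly weak, with a median at the 28.7th percentile of the list and a median width of 323 bp. The 8 basal peaks had medians at the 28.0th percentile and 405 bp.

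Single stretches showed how different the layouts could be. The densest excess of basal-only peaks was in the window of chromosome 7 from 119100001 to 120100000, with 79 basal-only of 127 basal peaks and 11 fMaSC-only of 63 fMaSC peaks. Windows on chromosome 9 from 43100001 to 44100000 and on chromosome 2 from 26800001 to 27800000 followed, with 61 and 59 basal-only peaks and 5 and 4 fMaSC-only peaks. The largest fMaSC excess was on chromosome 15 from 24700001 to 25700000, with 4 basal-only of 31 basal peaks and 43 fMaSC-only of 72 fMaSC peaks. That window also held 72 luminal progenitor and 50 mature luminal peaks. The next were on chromosome 4 from 146700001 to 147700000 (3 basal-only and 37 fMaSC-only peaks) and on chromosome 3 from 153800001 to 154800000 (1 basal-only and 31 fMaSC-only peaks). The longest unbroken rows of unmatched peaks, looked up after the other values were seen, differed in scale. In the basal list it was 16 peaks within 88.1 kb of chromosome 7, from 119416944 to 119505028, with no fMaSC peak, 1 luminal progenitor peak and 7 mature luminal peaks. In the fMaSC list it was 31 peaks spread over 5.06 Mb of chromosome 14, from 88402657 to 93466558, where basal cells had 1 peak, luminal progenitors 3 and mature luminal cells 6. Most peaks of these rows were weak and narrow. The 31 fMaSC peaks had a median at the 24.7th percentile of their list and a median width of 310 bp. For the 16 basal peaks these were the 37.7th percentile and 419.5 bp.

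Adult luminal cells were then used to ask which other adult types held the sites that separate basal cells from fMaSC. Most unmatched sites had no luminal peak either, namely 69.9% of basal-only peaks (69.3 to 70.4%) and 72.3% of fMaSC-only peaks (71.7 to 72.9%). Luminal progenitor peaks overlapped 22.5% of basal-only peaks (22.1 to 23.0%), where they overlapped 53.7% of all basal peaks, and 20.8% of fMaSC-only peaks (20.2 to 21.3%), where they overlapped 55.6% of all fMaSC peaks. Mature luminal peaks overlapped 19.4% of basal-only peaks (5545 of 28538; 45.2% of all basal peaks) and 15.8% of fMaSC-only peaks (3787 of 23971; 45.7% of all fMaSC peaks). Both unmatched classes were therefore below their own list in either luminal type. Unmatched peaks were also the weaker and narrower ones, and their overlap was higher in stronger peaks. From the weakest to the strongest tertile, the luminal progenitor share went from 17.4% to 39.7% of basal-only and from 15.8% to 38.8% of fMaSC-only peaks. Whether strength accounts for the lower shares was not tested. The differences between the classes, 1.79 points for luminal progenitors and 3.63 points for mature luminal cells (basal-only minus fMaSC-only), did not survive equal widths. With every peak set to 500 bp they were -1.13 and -0.0496 points.

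Tumour regions also separated the classes, and these differences kept their sign at equal widths. With every peak set to 500 bp they were -1.76 points for open and 1.93 points for closed regions. PY230 regions open in SOX10-high cells, compared by the authors with SOX10-low cells, overlapped 291 basal-only peaks (1.02%, 0.906 to 1.14%), against 1.29% of all basal peaks, and 764 fMaSC-only peaks (3.19%, 2.97 to 3.42%), against 1.92% of all fMaSC peaks. The basal-only share was lower than the fMaSC-only share on 20 of 20 chromosomes, with differences of -5.43 to -0.292 points (basal-only minus fMaSC-only). Closed regions overlapped 6.38% of basal-only peaks (6.10 to 6.67%; 6.03% of all basal peaks) and 4.40% of fMaSC-only peaks (4.14 to 4.67%; 5.27% of all fMaSC peaks), and the basal-only share was higher on 19 of 20 chromosomes. SOX10 is a transcription factor of the neural crest that is also active in mammary progenitor cells.

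**Figure D4:**
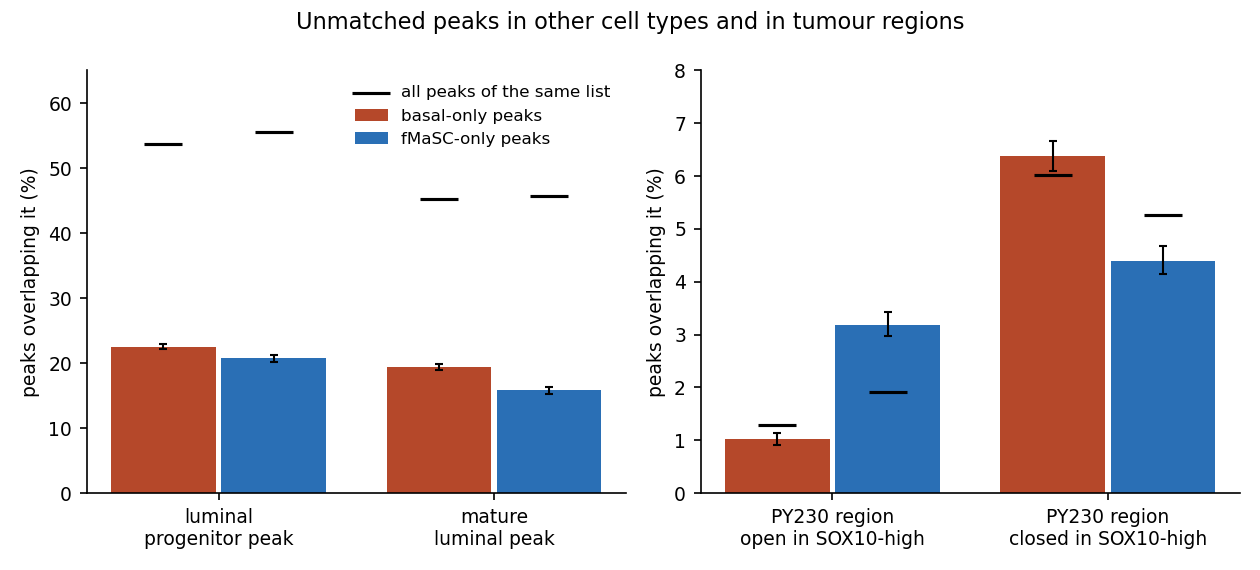
Share of basal-only and fMaSC-only peaks (%, y axes) that overlap a peak of an adult luminal type (left) or a PY230 region (right), with exact 95% intervals. Black lines give the share over all peaks of the same list. Open PY230 regions overlap 1.02% of basal-only and 3.19% of fMaSC-only peaks.

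The tumour difference was wider among strong peaks and at sites where luminal progenitors alone of the luminal types had a peak. In the strongest tertile of each list, regions open in SOX10-high cells overlapped 30 of 2220 basal-only peaks (1.35%, 0.914 to 1.92%) and 182 of 2225 fMaSC-only peaks (8.18%, 7.07 to 9.40%). In the weakest tertile they overlapped 0.941% of basal-only and 2.27% of fMaSC-only peaks. Over all peaks of any strength the shares were 1.29% of basal and 1.92% of fMaSC peaks. Shares over all peaks of a tertile were not computed, so a trait of unmatched peaks cannot be told apart here from one of strong peaks. At sites with a luminal progenitor peak and no mature luminal peak, open regions took in 129 of 3049 basal-only peaks (4.23%, 3.54 to 5.01%) and 335 of 2856 fMaSC-only peaks (11.7%, 10.6 to 13.0%). Over all peaks at such sites, matched or not, the shares were 5.17% of basal and 6.66% of fMaSC peaks, so the basal-only share was close to that of its list and somewhat below it, and the fMaSC-only share above. At sites with no luminal peak they took in 0.717% of basal-only peaks (0.942% of all basal peaks there) and 2.18% of fMaSC-only peaks (1.77% of all fMaSC peaks there). Closed regions were found mostly at sites with a mature luminal peak. Where mature luminal cells had a peak and luminal progenitors had none, they took in 32.0% of basal-only peaks (30.0 to 34.0%) and 27.9% of fMaSC-only peaks (25.7 to 30.1%), near the 28.7% of all basal and 26.1% of all fMaSC peaks at such sites.

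**Figure D5:**
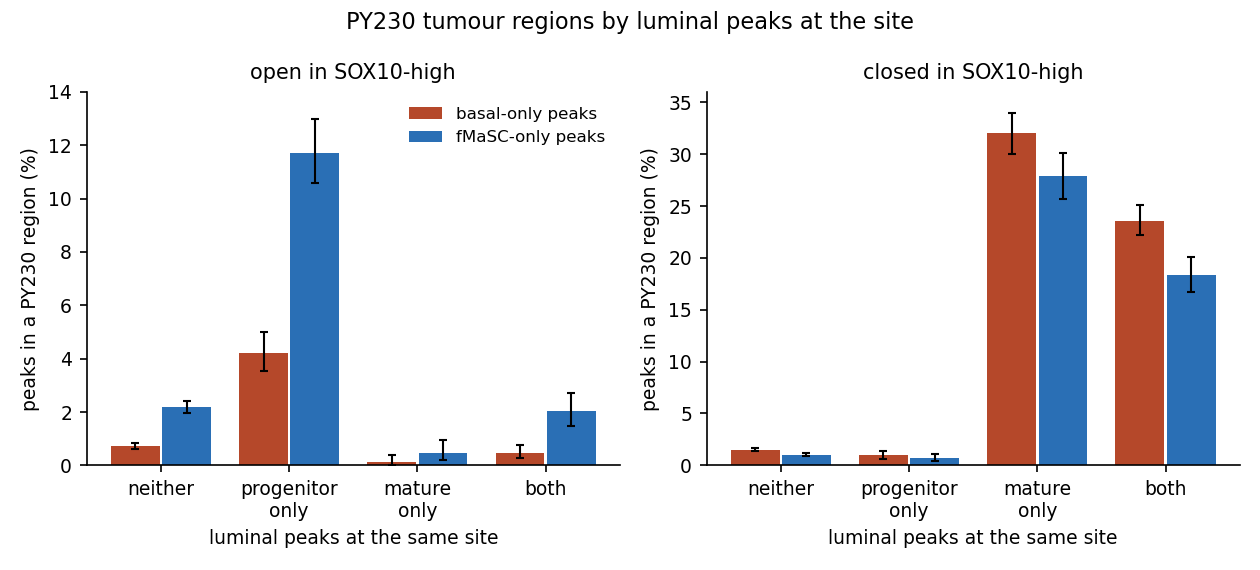
Share of basal-only and fMaSC-only peaks (%, y axes) in PY230 regions open (left) or closed (right) in SOX10-high cells, by which adult luminal type has a peak at the site (x axes), with exact 95% intervals. Open regions reach 4.23% of basal-only and 11.7% of fMaSC-only peaks at sites with a luminal progenitor peak alone.

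Seen from the tumour lists, 219 of 3208 open regions (6.83%, 5.98 to 7.76%) held a basal peak and no fMaSC peak, and 679 (21.2%, 19.8 to 22.6%) held an fMaSC peak and no basal peak. Another 719 (22.4%) held both and 1591 (49.6%) held neither. Of 15108 closed regions, 1610 (10.7%, 10.2 to 11.2%) held a basal peak and no fMaSC peak, and 942 (6.24%, 5.85 to 6.63%) an fMaSC peak and no basal peak. The open list thus held more regions with fMaSC peaks alone and the closed list more with basal peaks alone, while most closed regions (63.7%) held neither.

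The authors' lists of regions named UAR, each named for 1 normal type, were compared last. The labels state neither what UAR stands for nor how the regions were called. These lists come from the same samples as the peaks and are no independent evidence. Basal UARs overlapped 3826 basal-only peaks (13.4%, 13.0 to 13.8%), against 7.67% of all basal peaks, and fMaSC UARs overlapped 1123 fMaSC-only peaks (4.68%, 4.42 to 4.96%), against 1.70% of all fMaSC peaks. In the strongest tertile of each list these shares were 58.9% of 2220 basal-only and 33.9% of 2225 fMaSC-only peaks. Shares over all peaks of that tertile, or of the windows below, were not computed. The fMaSC-only share in UARs differed with the surroundings. Taken over peaks of all strengths, the basal-only share changed little between the windows compared. In windows with 1 to 10 luminal peaks, UARs took in 14.6% of basal-only and 9.57% of fMaSC-only peaks, and in windows with 81 or more they took in 13.0% of basal-only and 2.72% of fMaSC-only peaks. For the 30000 strongest peaks of each list, the shares in windows with 1 to 10 luminal peaks rested on few peaks. They were 82.9% of 41 basal-only and 46.3% of 307 fMaSC-only peaks. In windows with 81 or more, they were 51.8% of 1317 basal-only and 18.4% of 713 fMaSC-only peaks. A peak of the other population was no bar to being listed, since 2200 of 5144 basal UARs (42.8%) also held an fMaSC peak, and 234 of 1222 fMaSC UARs (19.1%) a basal peak.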

How the data were processed

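Nuclei of FACS-sorted mouse cells were tagged with a Nextera transposase and sequenced as paired ends, per the labels' protocols. Peak caller MACS2 2.1.1, SICER, the aligner Bowtie 0.12.8, bedtools 2.20.1, SAMtools 1.3.1, FastQC and the mm9 build appear in the submitters' processing notes, without a step for each. How duplicates, repeats and Tn5 offsets were handled is not stated there. The peak values are a fold, the ratio over background deposited by the authors, who called peaks on both samples of a type together at a q-value of 0.001, per the list names. Regions in the UAR and PY230 lists carry a score deposited by the authors on an unstated scale, which was not used.

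Coordinates are 1-based. The peak lists were kept as deposited and the lists on a 100 bp grid were moved by 1 base. Mitochondrial peaks (3 per peak list) were left out. Overlaps, distances and 1 Mb windows (by peak midpoint) were computed in Python 3.11.15 with numpy 2.4.6, pandas 2.3.3 and scipy 1.17.1. Counts, shared bases and distances equalled those of bedtools 2.31.1 on simulated data. Peaks named are the 5 of highest fold per unmatched class, the 3 beyond 10 kb, and the 3 sites and 3 windows of largest difference in each direction. The comparison, the windows and the gradings were chosen with earlier results of these data known, and the grading by luminal peaks was added after distances were seen. No sequence of mm9 was at hand, so none is shown. Alternatives are in the closing section.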

Additional observations from a re-analysis of the deposited data

How the results depend on the processing

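The 6 results examined were the numbers of basal-only and fMaSC-only peaks and the 4 differences in points (basal-only minus fMaSC-only) in luminal progenitor peaks, mature luminal peaks, and open and closed PY230 regions. Under 8 alternatives, 23 of 48 values stayed within 1.5 times the count or within the counting interval of the difference, 23 moved by more than that with no change of sign, and 2 changed sign. With every peak set to 500 bp, the luminal progenitor difference was -1.13 and the mature luminal difference -0.0496, and the open difference was -1.76. With at least 50% of a peak covered, the luminal differences were 10.3 and 10.9. The 30000 strongest peaks of each list gave 9854 basal-only and 9240 fMaSC-only peaks, by construction fewer, and differences of 6.81 (mature luminal), -3.75 (open) and 3.73 (closed). The same peaks against every peak of the other list gave 3010 basal-only and 2948 fMaSC-only peaks, and differences of 0.749 (luminal progenitor), 8.14 (mature luminal), -6.23 (open) and 5.60 (closed). Leaving out peaks under 300 bp gave 14933 fMaSC-only peaks, a luminal progenitor difference of 1.03 and an open difference of -3.08. An alternative chosen after seeing the data cut the basal list alone to its strongest peaks that cover as many bases as the fMaSC list. It gave 4641 basal-only and 45116 fMaSC-only peaks, by construction fewer and more, so the order of these counts was reversed. The differences were 0.733 (luminal progenitor), 2.66 (mature luminal), -1.47 (open) and 3.46 (closed). The cause of the moves was not tested. The open and closed differences kept their sign under all 8 alternatives. No paired analysis was possible because each list pools both samples of a population. For the same reason no replicate could be left out, and the unknown depth limits every count of unmatched peaks.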
